A study of Homo sapiens with 7 samples.

Results

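The pericentromeric CTCF peaks are the peaks of K562 cells whose centre lay within 2 Mb of a centromere or heterochromatin gap of the human genome sequence hg19. They were chosen by position alone. A gap was an uninterrupted run of N, the letter for unsequenced bases, of at least 2.9 Mb. There were 23 such runs on chromosomes 1 to 22, between 3 and 21.05 Mb long, and the longest run that was not used measured 1.05 Mb. The rule took 479 of the 32313 peaks on these chromosomes in untreated cells and 483 of 32197 in cells treated with pyridostatin (PDS). The whole lists held 33094 and 32917 peaks. The sequence beside the gaps amounted to 74.8 Mb without N, or 2.79% of the sequence of these chromosomes, whereas it held 1.48% of the control peaks and 1.5% of the PDS peaks.

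K562 is an established human cell line from a chronic myeloid leukaemia, and PDS is a small molecule that stabilises G-quadruplexes (G4s), which are folds of G-rich DNA. CTCF-bound DNA was recovered by chromatin immunoprecipitation and sequenced (ChIP-seq). The control group had 2 CTCF samples and 1 sample with nonspecific IgG, all from non-treated cells. The treated group had 2 CTCF samples and 2 IgG samples, with PDS at 10 μM during 24 h. A single cell line served both groups, and the study called 1 list of peaks per group on both replicates together, so that no value per replicate and no SD can be given. The labels describe single-end reads of 50 bases, whereas the methods describe paired-end libraries. The lists give no read counts, and the depth of each sample is unknown.

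Centromeres are the sites at which spindle fibres attach to chromosomes, and in humans they consist of long arrays of alpha satellite, a tandem repeat of short units. The arrays are flanked by pericentromeric sequence rich in duplicated segments, pseudogenes and heterochromatin. CTCF is a zinc finger protein that binds a long motif, acts as an insulator and anchors chromatin loops together with cohesin.

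The members include peaks with and without a recognisable CTCF site. The sequences of 6 of them follow, each covering the 200 bp at the peak centre on the plus strand of GRCh37 (hg19), to show what these peaks hold. The first 3 had the highest mean percentile by fold enrichment over IgG across the 2 lists, among peaks paired with exactly 1 peak of the other list. Single members ranked higher than some of them within 1 list. The next 2 are the strongest peaks found only in the control list and only in the PDS list. The last is the peak nearest to any gap. Capitals mark the 15 bp CTCF ChIP-exo consensus, exact in the peaks nearest to COX4I2 and BMS1 and with 1 mismatch in those nearest to PRIM2, PDRG1 and GPAT2. The peak nearest to DCUN1D4 had no match with up to 1 mismatch in this window. Nor did the central 200 bp of the PDS peak at PDRG1, which differ from the control window shown.
chr6:58287651-58287850, nearest coding gene PRIM2, control list: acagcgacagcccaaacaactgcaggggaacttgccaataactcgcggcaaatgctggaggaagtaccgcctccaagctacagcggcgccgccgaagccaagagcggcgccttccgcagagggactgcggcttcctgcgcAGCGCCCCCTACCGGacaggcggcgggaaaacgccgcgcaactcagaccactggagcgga
chr20:30539901-30540100, PDRG1 promoter, control list: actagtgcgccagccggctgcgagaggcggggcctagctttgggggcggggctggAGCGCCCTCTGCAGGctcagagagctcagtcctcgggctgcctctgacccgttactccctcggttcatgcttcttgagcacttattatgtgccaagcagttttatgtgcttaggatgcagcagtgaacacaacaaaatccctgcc
chr20:30222141-30222340, upstream of COX4I2, control list: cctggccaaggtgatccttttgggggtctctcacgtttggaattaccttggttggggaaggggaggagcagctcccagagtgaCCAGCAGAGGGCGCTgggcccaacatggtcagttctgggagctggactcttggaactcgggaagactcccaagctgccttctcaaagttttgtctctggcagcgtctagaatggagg
chr2:96688581-96688780, GPAT2 intron, control list only: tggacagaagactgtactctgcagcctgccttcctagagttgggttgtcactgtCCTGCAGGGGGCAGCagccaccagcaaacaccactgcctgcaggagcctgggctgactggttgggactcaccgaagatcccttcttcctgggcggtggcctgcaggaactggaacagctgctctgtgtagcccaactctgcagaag
chr10:43362201-43362400, nearest coding gene BMS1, PDS list only: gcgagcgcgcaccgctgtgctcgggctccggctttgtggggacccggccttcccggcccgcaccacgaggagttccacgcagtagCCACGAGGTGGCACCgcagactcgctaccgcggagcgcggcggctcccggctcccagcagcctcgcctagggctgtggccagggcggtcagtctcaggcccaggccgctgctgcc
chr4:52697391-52697590, nearest coding gene DCUN1D4, control list: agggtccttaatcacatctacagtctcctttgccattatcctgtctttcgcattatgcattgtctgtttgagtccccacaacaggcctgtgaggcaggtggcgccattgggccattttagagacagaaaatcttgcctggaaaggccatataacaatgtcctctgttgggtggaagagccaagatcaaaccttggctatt

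The peak on chromosome 6 lay 0.492 Mb from the gap and 1108147 bp from the nearest coding gene start, that of the DNA primase subunit PRIM2. Its fold over IgG was 107 in the control list (rank 189) and 82.7 in the PDS list (rank 16). The 200 bp held 21 CpG dinucleotides in the control peak, and 56.2% of the 50-mers sampled in them occurred once in the genome. The peak at the start of PDRG1 had a fold of 137 (rank 47) among control peaks and 44.9 (rank 484) among PDS peaks. The peak 3475 bp from the start of COX4I2, which encodes a subunit of cytochrome c oxidase, had folds of 87.9 (rank 471) and 50.7 (rank 265). Folds are relative to IgG, of which 1 control sample is used here, and whether the control list was called over a further one is not given in the sources used here, so their ranks were compared and not their levels.

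The strongest control-only peak, in an intron of GPAT2, had a fold of 76.8 (rank 822) and was 120 bp wide, the smallest width in its list. The next lay 179 bp from the start of MRPS30, which encodes a protein of the mitochondrial ribosome, with a fold of 49.4 (rank 4020). The strongest PDS-only peak, 84057 bp from the start of the ribosome biogenesis gene BMS1, had a fold of 58.5 (rank 108) and a width of 100 bp, also the smallest of its list. The next, on chromosome 17, had a fold of 27.3 (rank 4336), and 31.2% of its 50-mers occurred once in the genome. Of these 4 peaks only the MRPS30 peak had no repeated 50-mer at its centre. The part of repeated sequence in these calls was not tested.

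**Figure D1:**
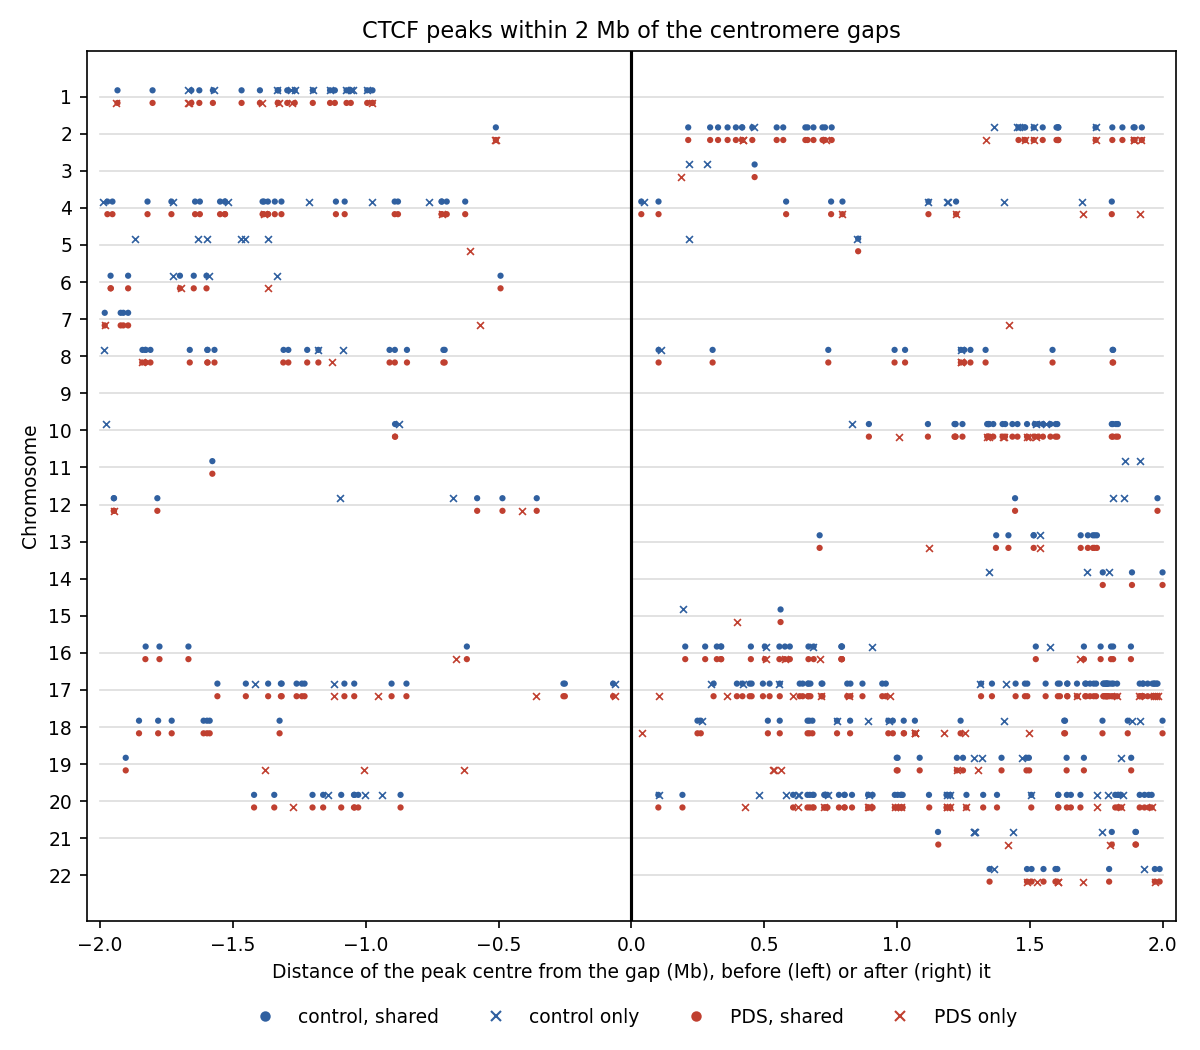
Each pericentromeric peak, placed by the distance of its centre from the gap in Mb (x axis, negative values before the gap on the chromosome) and by chromosome (y axis). Dots are peaks with a counterpart in the other list and crosses are peaks of 1 list only, with control peaks in blue above and PDS peaks in red below. Grey lines show the flanks that hold sequence.

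CTCF peaks were sparser beside the gaps than in the rest of the same chromosomes in both lists. The density was 6.40 peaks per Mb against 12.2 in control cells and 6.46 against 12.15 in PDS-treated cells, with N left out of the lengths. The ratio of densities, combined over chromosomes by the Mantel-Haenszel method, was 0.470 (95% interval 0.429 to 0.514) for control cells and 0.467 (0.427 to 0.511) for PDS-treated cells. The density was below that of the rest on 17 of 22 chromosomes in both lists. Intervals here cover counting error only and treat peaks as independent. Peaks stood in groups, so the intervals are too narrow, and leaving out each chromosome in turn gave ratios from 0.430 to 0.518 and from 0.422 to 0.517.

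The density rose with distance from the gap. In the first 0.5 Mb it was 2.46 peaks per Mb in the control list, and 2.36 in that of PDS-treated cells. From 0.5 to 1 Mb it was 5.76 and 6.24, from 1 to 1.5 Mb 7.52 and 7.47, and from 1.5 to 2 Mb 10.1 and 10.0 peaks per Mb. Just beyond the limit, from 2 to 3 Mb, the values were 10.2 and 10.9, and from 5 to 10 Mb they were 13.2 in both lists. At the limit, a shared peak in an intron of the DNA repair gene RBBP8 lay 1.999 Mb from its gap and was taken, and a shared peak in an exon of LONP2 lay 2.002 Mb from its gap and was not.

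The sequence itself changed over the same distance. Of the 50-mers sampled in the first 0.5 Mb, 66.5% occurred once in the genome, against 82.2% from 1.5 to 2 Mb and 93.6% beyond 10 Mb. A peak can be called only where reads can be placed, and the part of read placement in the density was not tested. Sequence with the period of the alpha satellite unit made up 8.74% of the first 0.5 Mb, 1.22% of the next and 0.207% of the 1.5 to 2 Mb step. Per Mb of unique 50-mers the density still rose, from 3.71 control peaks in the first step to 12.3 in the last within the limit, and from 3.55 to 12.2 in the PDS list.

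**Figure D2:**
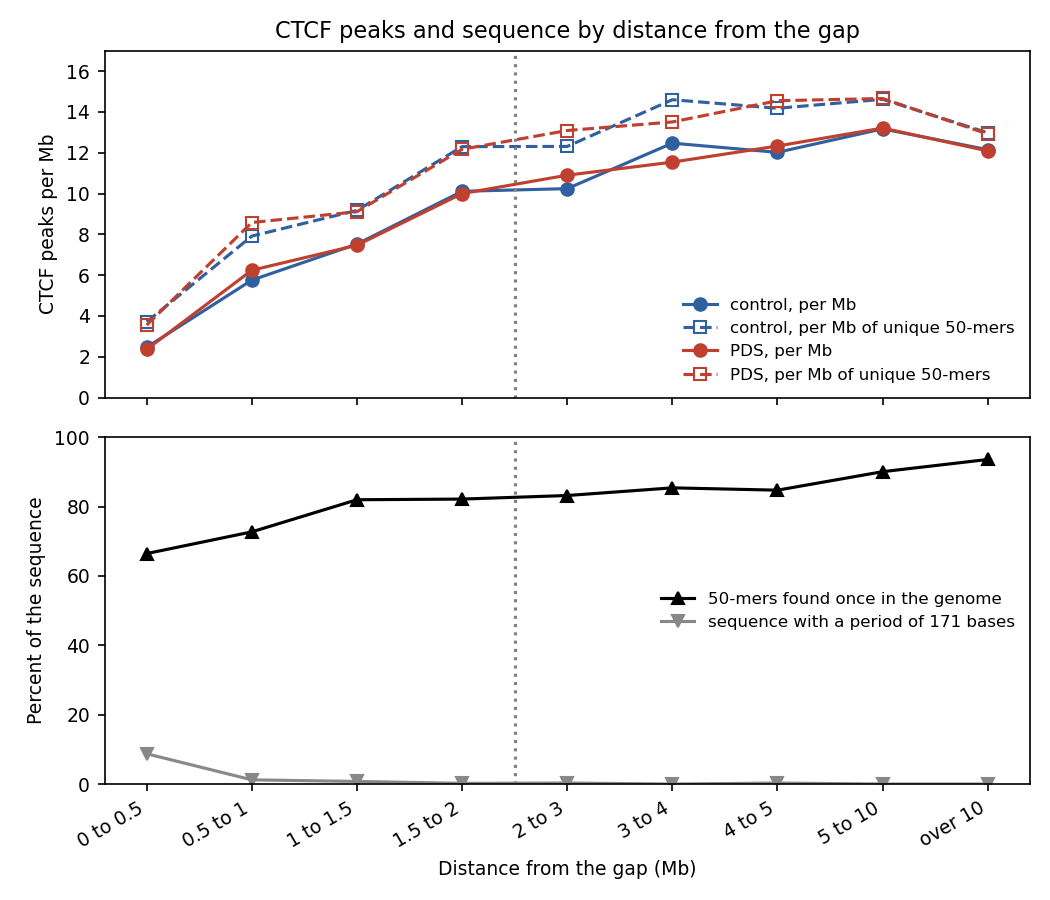
Peaks per Mb of sequence (filled symbols, solid lines) and per Mb of unique 50-mers (open symbols, dashed lines) in the upper panel, and the percent of the sequence that is unique or has the period of alpha satellite in the lower panel, against distance from the gap in Mb. The dotted line marks the limit of 2 Mb, and both lists rise from under 3 peaks per Mb beside the gap to about 10 at the limit.

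With unique 50-mers as the denominator, the ratio of densities was 0.571 (0.522 to 0.625) for control cells and 0.568 (0.519 to 0.621) for PDS-treated cells. In bins of 100 kb with at least 90 kb of sequence and at least 90% unique 50-mers, a comparison chosen after the data were seen, it was 0.732 (0.659 to 0.813) and 0.733 (0.661 to 0.814). Grouping these bins also by the number of coding gene starts gave 0.762 (0.686 to 0.847) and 0.767 (0.691 to 0.852). The deficit was smaller in unique sequence, and each of these intervals lay below 1.

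By steps of uniqueness, the relative difference was largest in bins with 50 to 80% unique 50-mers and smaller in each more unique step. In bins under 50% unique, the control list held 0.358 peaks per Mb beside the gaps and 1.57 elsewhere, and the PDS list 0.627 and 1.51. In bins with 50 to 80% unique 50-mers, the control list held 1.73 peaks per Mb beside the gaps and 10.2 elsewhere, and the PDS list 1.84 and 10.2. In bins with 80 to 90%, the control density was 6.19 against 13.0, and in bins with 90 to 95% it was 10.3 against 14.6. In bins with 95% or more, it was 10.2 against 10.9 in the control list and 9.92 against 10.7 in the PDS list. These steps also differed in gene density. In bins with 95% or more there were 6.885 coding gene starts per Mb beside the gaps against 4.905 elsewhere. In all other steps there were fewer beside the gaps, with 7.95 against 9.66 in bins with 90 to 95%. No test was made of single steps, and the part of gene density in them was not tested.

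The sequence beside the gaps also differed in gene content. Only 24.5% of the sequence beside the gaps lay inside protein-coding genes, against 47.1% in the rest. Inside coding genes, the control list held 11.95 peaks per Mb beside the gaps and 14.35 elsewhere, and the PDS list held 11.7 and 13.96. Outside coding genes the difference was larger, with 4.60 against 10.3 peaks per Mb in the control list and 4.74 against 10.5 in the PDS list. These densities are descriptions and were not tested.

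The chromosomes differed widely. The 3 with the highest control density were chromosome 17 with 79 peaks (20.3 per Mb), chromosome 20 with 68 (17.7 per Mb) and chromosome 2 with 38 (13.1 per Mb). In the PDS list they held 87, 68 and 44 peaks. Chromosomes 17 and 20 together gave 30.7% of the control members and 32.1% of the PDS members from 10.4% of the pericentromeric sequence. On chromosome 4, which was chosen after its values were seen, the density of 10.9 per Mb was 2.11 times that of its rest in control cells. After PDS the density of 9.61 per Mb was 2.24 times that of the rest.

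Chromosome 9 held 0 members in both lists, in 3.22 Mb of which 10.3% was unique. A count of 0 allows up to 3 peaks. The lowest densities above 0 in the control list were on chromosome 3 (3 peaks, 0.750 per Mb), chromosome 11 (3 peaks, 0.812 per Mb) and chromosome 7 (4 peaks, 1.05 per Mb). The PDS list had 2, 1 and 7 peaks there. On chromosome 3, 92.8% of the pericentromeric 50-mers were unique and there were 6 coding gene starts. On chromosome 11, 82.3% were unique and there were 56 coding gene starts. The part of either in the low densities was not tested.

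Over the 22 chromosomes, the pericentromeric control density had a Spearman's rho of 0.613 with coding gene starts per Mb and of 0.0994 with the share of unique 50-mers. For the PDS list the values were 0.531 and 0.140. The chromosomes share libraries and depth, and these coefficients are descriptions. Of 40 flanks with sequence, 6 had no peak in either list. Their median share of unique 50-mers was 44.5%, against 81.7% in the 34 others, although the empty flanks before the gap of chromosome 3 and after that of chromosome 6 were 91.7% and 92.5% unique. Each of these 2 flanks held 1 coding gene start.

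**Figure D3:**
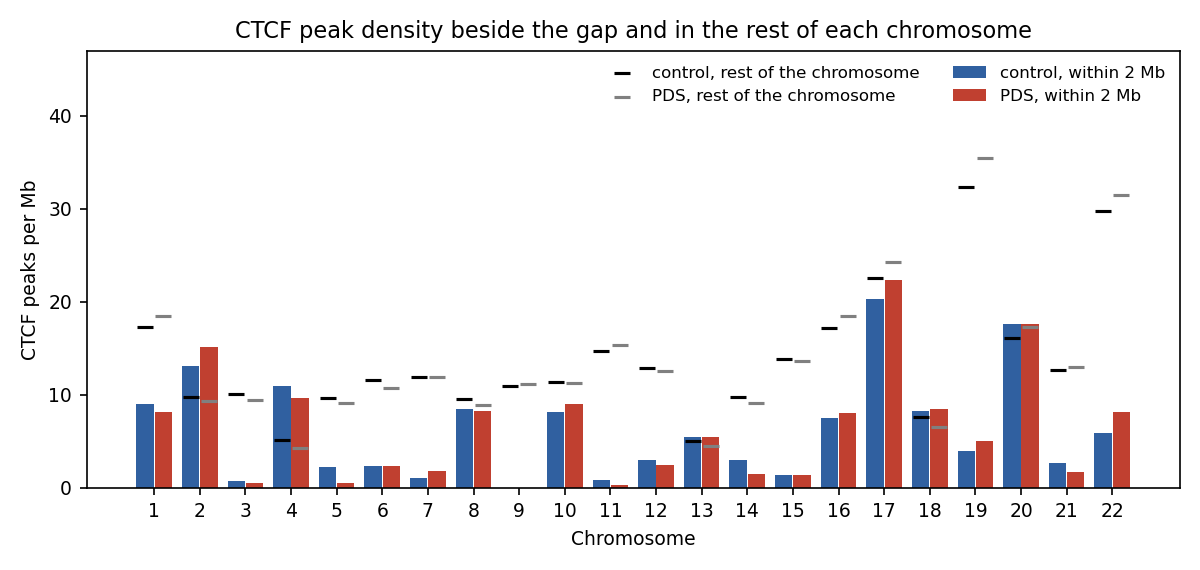
CTCF peaks per Mb within 2 Mb of the gap on each chromosome (bars, blue for control and red for PDS) and in the rest of that chromosome (black and grey marks). Chromosomes 2, 4, 13, 18 and 20 are those where bars reach above the marks in both lists, and chromosome 9 has no peak beside its gap.

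The densest stretches of members, which were picked by their counts, were on chromosomes 17, 20 and 10 in both lists. In a window of 0.5 Mb on chromosome 17 (chr17:26744011-27244010), the control list held 33 peaks, and in an almost identical window the PDS list held 39. That window has 21 coding gene starts, among them FOXN1, a transcription factor of the thymus, ALDOC, which encodes an aldolase, SUPT6H, a transcription elongation factor, and FLOT2, which encodes a membrane raft protein. On chromosome 20 a window starting at 30001621 held 26 control peaks, and one starting at 30028226 held 28 PDS peaks. It spans 13 coding gene starts, including BCL2L1, an inhibitor of apoptosis, TPX2, a spindle assembly factor, and ID1, an inhibitor of DNA binding. A window on chromosome 10 with 6 coding gene starts, among them that of the receptor tyrosine kinase gene RET, held 23 control peaks and 27 PDS peaks.

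By single genes, 7 control and 10 PDS peaks were centred in or within 5 kb of RASGEF1A on chromosome 10, which is 72.5 kb long. By the same count KSR1 on chromosome 17, which encodes a scaffold of the RAF and MEK kinases and is 170 kb long, had 8 in each list, and HM13 on chromosome 20, which encodes signal peptide peptidase, had 7 in each. The widest control peak, 2160 bp, lay in an intron of KSR1. The widest PDS peak, 2600 bp, lay at the start of DHRS13 and overlapped 2 control peaks.

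Of 407 coding gene starts beside the gaps, 73 (17.9%, Wilson 95% interval 14.51 to 21.96%) had a control peak centred within 1 kb and 68 (16.7%, 13.4 to 20.6%) had a PDS peak. In the rest the shares were 21.5% and 20.3%. Of the pericentromeric starts, 63 had a peak centred within this distance in both lists, 10 in the control list only and 5 in the PDS list only. Of the starts in the rest, 3481 had one in both lists, 567 in the control list only and 335 in the PDS list only. Genes of the olfactory receptor family, by their symbols, accounted for 74 of the 407 starts, and none of these had a peak in either list. Elsewhere 4 of 340 olfactory receptor gene starts had a control peak and 3 a PDS peak. Zinc finger genes with ZNF symbols accounted for 30, of which 4 (13.3%) had a peak in both lists, whereas elsewhere 111 of 473 (23.5%) had a control peak and 94 (19.9%) a PDS peak. For the other 303 coding genes the shares were 22.8% and 21.1%, against 21.8% and 20.7% in the rest. The families were chosen after the data were seen, and these shares were not tested.

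Values at some gene starts follow, picked for the genes' functions or ranks after their values were seen. The peak at the start of ESCO1, the acetyltransferase of cohesin, had a fold of 119 in the control list (rank 107) and 19.4 in the PDS list (rank 12022). SNRPD1, which encodes a core protein of the spliceosome, had folds of 78.8 (rank 730) and 62.9 (rank 78). At the start of GATA6, a transcription factor of the endoderm and heart, the folds were 42.2 (rank 6109) and 12.6 (rank 24581). The start of DNMT3B, a DNA methyltransferase that acts at pericentromeric satellites, had folds of 33.2 (rank 10707) and 11.7 (rank 26008), with 2 G4 motifs in the control peak and 3 in the PDS peak. The start of ZNF25, a zinc finger gene, ranked high in both lists, with folds of 78.5 (rank 738) and 54.5 (rank 174). That of PHKG1, which encodes a subunit of phosphorylase kinase, had folds of 13.7 (rank 28439) and 27.02 (rank 4480). The starts of HSPA13, NOL4L, RAB23 and WSB1 had PDS peaks within 1 kb that overlapped no control peak, with folds between 4.58 and 15.7. The control peaks at the starts of ADAM30, DCUN1D4, MRPS5 and MRPS30, among others, overlapped no PDS peak. At HNRNPF, RBBP8 and ZMYM2 the peak was shared, and the centre of its counterpart in the other list lay beyond 1 kb of the start.

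The question of the treatment was whether the lists differed more beside the gaps than elsewhere. The PDS list had 1.008 times as many members as the control list, against 0.996 times in the rest, and the odds ratio stratified by chromosome was 1.013 (0.891 to 1.15). A difference in list size beside the gaps was not detectable with these lists. In the lists of chromosomes 1 to 22 as a whole, 21.9% of control peaks and 21.4% of PDS peaks had no counterpart in the other list. Of the members, 109 of 479 control peaks and 109 of 483 PDS peaks had none, so that 77.2% (73.3 to 80.8%) and 77.4% (73.5 to 80.9%) were shared. The shares of the rest were 78.1% and 78.6%. The odds ratios were 0.871 (0.699 to 1.08) and 0.868 (0.698 to 1.08), and neither interval excluded 1.

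The members found in 1 list only mostly ranked low in it, with a median fold percentile of 33.5 in the control list and 28.0 in the other, although the peaks at GPAT2 and BMS1 ranked high by fold. Single-list peaks of the rest had medians of 31.05 and 27.32. By p-value, 91.7% of the 109 control-only members lay in the weaker 50% of the control list, and 100% of the 109 PDS-only members in that of the PDS list. In the rest the values for single-list peaks were 88.3% and 98.9%. Control-only members had a median width of 180 bp and PDS-only members one of 100 bp, against 360 bp and 350 bp for shared members. The median widths in the rest were 180 and 100 bp for single-list peaks and 420 and 400 bp for shared peaks. The GC content of the central 200 bp had a median of 41% in control-only members and 55% in shared control members, whereas it was 51.5% in PDS-only and 54.5% in shared PDS members. The same medians in the rest were 41.5%, 54%, 51.5% and 54%. The exact consensus was present in 10.1% (5.73 to 17.2%) of the control-only members and 3.67% (1.44 to 9.06%) of the PDS-only members. Among shared members it was present in 14.9% and 12.6%. In the rest it was present in 10.2% of control-only and 2.26% of PDS-only peaks and in 14.3% and 11.7% of shared peaks. Of the single-list members, 69.7% of the control-only and 54.1% of the PDS-only peaks lay with their centres at least 1 kb from any peak of the other list. In the rest the values were 75.5% and 42.8%.

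At 357 places exactly 1 control member overlapped exactly 1 PDS member. Across these pairs the folds had a Spearman's rho of 0.442, and in the rest the value was 0.419 over 23707 pairs. Pairs are not replicates, and the coefficients describe 2 lists of the same cell line. In 21 pairs (5.88%) both peaks belonged to the top 10% of their lists by fold, against 4.999% of the pairs in the rest. From control to PDS the fold percentile moved by a median of -1.33 points, with quartiles of -21.1 and 14.5, and in the rest by a median of 0.718 points, with quartiles of -18.5 and 20.7.

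**Figure D4:**
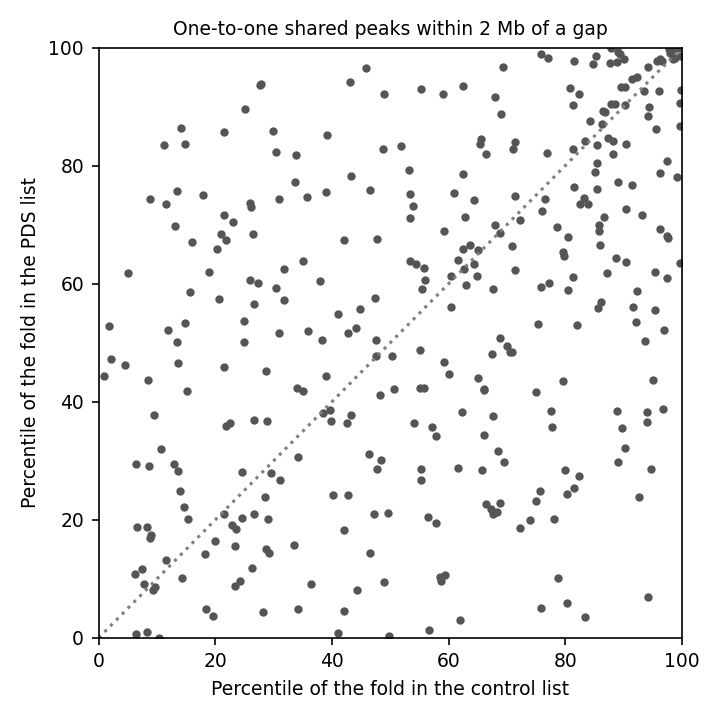
Percentile of the fold in the PDS list (y axis) against that in the control list (x axis) for the 357 one-to-one shared pericentromeric peaks, each a point, with 100 the strongest. The dotted line marks equal percentiles, and points spread widely around it along the whole axis.

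A difference in rank by fold between members and other peaks was not detected, whereas members stood lower by p-value. Members had a median fold percentile of 49.6 in control cells and of 48.1 after PDS. The share of members in the upper 50% by fold was 49.5% against 50.0% in the rest for control (odds ratio 0.903, interval 0.753 to 1.08) and 48.2% against 49.9% for PDS (0.908, 0.757 to 1.09). By p-value, 45.1% of the members stood in the upper 50% in both lists, with odds ratios of 0.831 (0.691 to 0.999) and 0.802 (0.668 to 0.964). In the control list, leaving out any of 12 chromosomes took the interval past 1, as did leaving out chromosome 19 in the PDS list. Control members had a median width of 300 bp (quartiles 180 and 540), and PDS members one of 250 bp (quartiles 150 and 550), against 360 and 300 bp in the rest.

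G4 motifs, taken on either strand as 4 G runs, each of 3 or more, separated by 1 to 7 nt, were somewhat sparser beside the gaps, with 122 motifs per Mb against 135.5. In the control list 78 members (16.3%, 13.2 to 19.9%) overlapped a motif against 16.1% in the rest (odds ratio 1.011, 0.789 to 1.30). In the PDS list 74 members (15.3%, 12.4 to 18.8%) did so against 17.3% (0.858, 0.667 to 1.10). A difference was not detected in either list at the limit of 2 Mb. Within 1 Mb the control ratio was 1.55 (1.05 to 2.27), whereas the PDS ratio was 0.981 (0.651 to 1.48). Members with a motif within 1 kb but none in the peak made up 31.3% against 27.4% in the control list (1.15, 0.946 to 1.41) and 36.0% against 29.2% in the PDS list (1.33, 1.10 to 1.61). In the PDS list the interval included 1 within 1 Mb (1.34, 0.976 to 1.85), within 5 Mb (1.06, 0.95 to 1.17) and among the 50% smallest p-values (1.28, 0.964 to 1.71). In the control list the interval excluded 1 against the 2 to 10 Mb beside the gap (1.27, 1.02 to 1.57) and without chromosome 1 (1.26, 1.03 to 1.54). Whether the lists differed in this ratio was not tested.

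The member with most G4 motifs lay 32066 bp from the start of MAP2K3, a kinase of the p38 pathway, with 4 motifs in each list. It was 780 bp wide with a fold of 42.0 (rank 6190) in the control list and 900 bp wide with a fold of 25.2 (rank 5664) in the PDS list. Its central 200 bp on the plus strand of GRCh37 are shown because 2 of the motifs, in capitals, stand there, with runs of G where the motif is on the plus strand and runs of C where it is on the minus strand.
chr17:21219951-21220150, nearest coding gene MAP2K3, control list: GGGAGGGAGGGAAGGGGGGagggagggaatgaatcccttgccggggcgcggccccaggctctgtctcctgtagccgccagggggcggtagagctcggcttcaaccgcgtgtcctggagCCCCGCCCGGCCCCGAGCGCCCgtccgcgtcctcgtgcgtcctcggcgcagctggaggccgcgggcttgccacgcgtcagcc

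The exact CTCF consensus was found in the central 200 bp of 66 control members (13.78%, 10.98 to 17.15%) against 13.4% in the rest (odds ratio 1.00, 0.767 to 1.30). In the PDS list it was found in 51 members (10.6%, 8.12 to 13.6%) against 9.69% (1.04, 0.775 to 1.40). With 1 mismatch allowed the shares were 48.4% against 42.9% and 38.1% against 33.7%, with odds ratios of 1.19 (0.988 to 1.42) and 1.12 (0.933 to 1.36). A match is a stretch of letters and not a measured site.

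None of the members passed the limit used here for alpha satellite, which rests on its period alone. No member had 50% or more identity between its sequence and itself shifted by the length of the alpha satellite unit, which leaves an upper Wilson limit of 0.796% in the control list, and 0.789% in that of PDS-treated cells, although 2.81% of the pericentromeric sequence (2.10 Mb) passed that limit. Among peaks of the rest, 1 of 31834 in the control list and 1 of 31714 in the PDS list reached that identity. The median identity at this shift was 26% and 25.9%, against 26.2% and 26% in the rest. No member had a CENP-B box, the motif of the centromere protein B, within 500 bp, and no peak of the rest had one. In the PDS list 1 member held 2 tandem units of the pentamer repeat of satellites II and III, against 20 of 31714 peaks in the rest. In the control list no member held them, against 20 of 31834 peaks in the rest. No peak centre of either list fell in the windows that make up the pericentromeric sequence with the alpha satellite period. Of the 21040 50-mers sampled there, 67.1% occurred once in the genome, against 75.7% of all 50-mers beside the gaps, and the part of read placement in the lack of peaks was not tested.

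Of all 50-mers, 75.7% occurred once in the genome beside the gaps and 92.9% in the rest, so repeated sequence was more common there with or without a peak. At least 1 of 16 sampled 50-mers of the centre occurred elsewhere in the genome for 5.64% (3.90 to 8.08%) of control members against 2.55% (odds ratio 2.33, 1.56 to 3.48). For PDS members it was 9.52% (7.22 to 12.5%) against 5.02% (2.07, 1.51 to 2.83). These shares count peaks with any repeated 50-mer and the first counts single 50-mers, so they are not on the same scale, and no excess under the members beyond that of the region was tested. The study removed reads of low mapping quality.

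Of the sequence beside the gaps, peaks or not, 75.5% was outside coding genes, against 52.9% in the rest, and the shares of peaks by gene context are to be read against that difference. Of the control members 48.6% (44.2 to 53.1%) were outside coding genes and their promoters against 39.5% (odds ratio 1.45, 1.21 to 1.74), and of the PDS members 49.9% (45.5 to 54.3%) against 40.9% (1.45, 1.21 to 1.74). Among the 50% smallest p-values the PDS interval included 1 (1.27, 0.970 to 1.67). Introns held 29.0% against 40.1% (0.618, 0.505 to 0.755) and 28.2% against 38.7% (0.625, 0.511 to 0.765). Starts of long noncoding RNA genes were within 1 kb of 8.98% of the control members against 5.58% (1.68, 1.22 to 2.31) and of 8.70% of the PDS members against 5.59% (1.59, 1.15 to 2.19). Against the 2 to 10 Mb beside the gap the PDS interval included 1 (1.31, 0.920 to 1.88). Starts of lncRNA genes were also denser beside the gaps, with 7.87 per Mb against 6.76. Coding gene starts were within 1 kb of 14.8% of control members against 12.1% (1.25, 0.970 to 1.62) and of 14.9% of PDS members against 11.6% (1.33, 1.03 to 1.72). Leaving out any 1 of chromosomes 6, 12, 17, 18 or 20 took the PDS interval past 1, and without chromosome 10 or 19 the control interval excluded 1. The PDS interval also included 1 within 1 Mb (1.009, 0.630 to 1.62), within 5 Mb (1.15, 0.995 to 1.33) and against the 2 to 10 Mb beside the gap (1.33, 0.998 to 1.76), whereas the control interval excluded 1 within 5 Mb (1.25, 1.09 to 1.44) and among the 50% smallest p-values (1.49, 1.05 to 2.11).

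**Figure D5:**
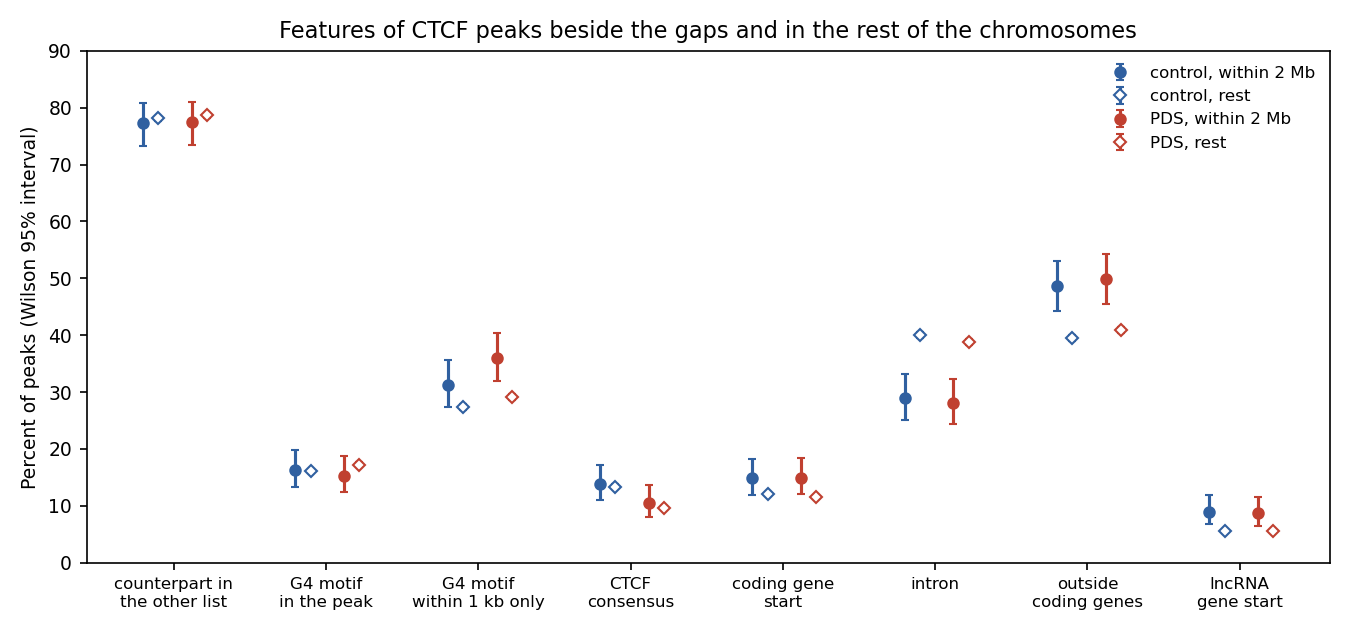
Percent of peaks with each feature (y axis) for members within 2 Mb of a gap (filled circles) and the rest of chromosomes 1 to 22 (open diamonds), with control in blue, PDS in red and Wilson 95% intervals as bars. Members were lower for introns and higher for positions outside coding genes and near lncRNA gene starts, and their intervals span the value of the rest for the shared share, G4 motifs in the peak and the consensus.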

How the data were processed

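Reads were aligned by the authors to hg19 with Bowtie2 2.2.3 and filtered with SAMtools, and peaks were called with PePr on both replicates of a condition over IgG. The processing notes also name deepTools 2.0. Each deposited list gives, per peak, a score, a fold enrichment over IgG, a p-value and an adjusted p-value, all computed by the authors. The deposited fold and p-value were used only to rank peaks within a list, and folds of paired peaks were correlated by rank. The deposited score and adjusted p-value were not used.

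Peaks were placed on the GRCh37 sequence (hg19) with genes of GENCODE release 44 mapped to that build. Shared peaks overlapped by at least 1 bp. The comparison with the rest of the chromosomes used Mantel-Haenszel density and odds ratios with chromosomes as strata, and a difference was called where the 95% interval excluded 1. No p-value was computed, because peaks are not replicates and each condition has 1 list. Uniqueness came from 50-mers taken every 100 bp of the chromosomes and every 10 bp of peak centres, counted on both strands of chromosomes 1 to 22, X and Y. Sequence with the alpha satellite period was that of windows of 1000 bp with at least 50% identity to themselves when shifted by 1 alpha satellite unit.

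The peaks named were, by rule, the 3 one-to-one shared peaks with the highest mean percentile by fold and the 2 strongest peaks of each list only. Also named were the peaks nearest to a gap, the widest, those with most G4 motifs and those on either side of the limit. The chromosomes named were the 3 with the highest and the 3 with the lowest control density and any with 0. Members and lists were chosen with earlier results of these data known. The odds ratios for gene context, lncRNA gene starts, repeated 50-mers, flanking G4 motifs and rank by p-value, planned as descriptions or not planned, were computed after values were seen, and 17 features in 2 lists were compared without adjustment.

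On simulated data the median of 200 density ratios was 0.500 for a planted 0.5, with the planted value in 93.5% of the intervals. For a planted odds ratio of 1 it was 0.998, with 90.5% of the intervals holding it, and for 1.5 it was 1.485, with 94.5%. The simulated counts were independent and had 1 ratio for all chromosomes, so these shares do not cover peaks that stand in groups. All 200 planted G4 motifs and 200 consensus sites were found. Computation used Python 3.11.15, numpy 2.4.6, pandas 2.3.3, scipy 1.17.1, numba 0.67.0 and matplotlib 3.10.9.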

Additional observations from a re-analysis of the deposited data

How the results depend on the processing

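No paired analysis was possible because the replicates of a condition share a single list of peaks, and for the same reason no replicate could be left out. The alternatives were the distance, the length of the N run, the denominator, the comparison region, stringency, merging, the definitions of shared and of motifs, and each chromosome left out in turn. The density ratio stayed below 1, with its interval, under each alternative run for it, which were all but the definitions of shared and of motifs, from 0.303 within 1 Mb in the control list to 0.767 in unique bins by gene starts in the PDS list. Within 1 Mb there were 155 control and 162 PDS members, within 5 Mb 1811 and 1816, and among the 50% smallest p-values 216 and 218. The median width moved to 540 bp (control) and 550 bp (PDS) in that stringent 50%, and to 350 bp in one-to-one PDS peaks.

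Ratios near 1 changed side, without passing the threshold unless said. For the shared share they were 1.09 (control) and 1.05 (PDS) where 50% of both peaks had to overlap, and 1.085 and 1.05 with centres at most 100 bp apart. For G4 motifs in control peaks they were 0.997 within 5 Mb, 0.978 with N runs of at least 1 Mb, 0.976 with loops up to 12 nt and 0.967 in 200 bp, and within 1 Mb the ratio was 1.55 (1.05 to 2.27), past the threshold. In PDS peaks they were 1.015 against the 2 to 10 Mb beside the gap and 1.06 in 1000 bp. For the consensus in control peaks they were 0.977 within 1 Mb, 0.979 within 5 Mb and 0.895 with the 14 bp core of the consensus and 2 mismatches, and with that core 0.973 in PDS peaks. The list ratio was 0.997 within 5 Mb and 0.992 in the stringent 50%. The share in the upper 50% by fold gave 1.12 (control) and 1.03 (PDS) within 1 Mb. With peaks ranked by p-value and the limit at 2 Mb, that share kept its side and passed the threshold, at 0.831 and 0.802. The flanking G4 motif ratio in control peaks was 0.988 within 5 Mb, and it passed the threshold against the 2 to 10 Mb beside the gap (1.27) and without chromosome 1 (1.26), while in the PDS list its interval included 1 within 1 Mb, within 5 Mb and in the stringent 50%. The lncRNA ratio of the PDS list was 1.31 (0.920 to 1.88) against the 2 to 10 Mb beside the gap. The causes were not tested.

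Leaving out each chromosome gave a range of 0.934 to 1.05 (control) and 0.897 to 1.13 (PDS) for the consensus, 0.908 to 1.09 and 0.774 to 0.930 for G4 motifs, 0.996 to 1.03 for the list ratio, 0.821 to 0.938 and 0.826 to 0.908 for the shared share, 0.880 to 0.963 and 0.884 to 0.953 for the upper 50% by fold, and 1.06 to 1.26 for flanking G4 motifs in control peaks. Member counts ranged from 400 to 479 and from 396 to 483, and median widths were 300 bp and 250 to 300 bp. Unknown depth, the single list per condition and repeats without unique 50-mers limit all values.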

Other observations

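Pseudogenes were the most common genes beside the gaps. There were 1199 pseudogene starts there, or 16.03 per Mb against 4.94 in the rest, and 14 of them (1.17%, Wilson 95% interval 0.697 to 1.95%) had a control peak within 1 kb. The PDS list also had a peak at 14, of which 13 were in both lists. In the rest 2.61% (336) and 2.76% (355) of pseudogene starts had a peak, of which 281 were in both lists. Of the 589 lncRNA gene starts beside the gaps, 42 (7.13%, 5.32 to 9.50%) had a control peak and 38 (6.45%, 4.74 to 8.73%) a PDS peak, against 9.95% and 9.43% in the rest. For both kinds the printed shares per gene start were lower in value beside the gaps, but no ratio was computed and the differences were not tested. Counted per peak, a larger share of the members stood near lncRNA gene starts.

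In gene-poor unique bins of 100 kb, those with no coding gene start, the density was 4.64 control peaks per Mb beside the gaps against 6.28 elsewhere, and 4.30 against 5.89 in the PDS list. In bins with 1 to 2 starts it was 18.0 against 19.2 and 18.9 against 19.2. In the 25 bins with 3 or more starts it was 21.6 against 37.4 and 22.8 against 40.1. These steps were chosen after the data were seen and were not tested.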
